A study of Mus musculus with 4 samples.

Results

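Guanylate-binding proteins (GBPs) and immunity-related GTPases (IRGs) are families of interferon-induced GTPases, and 9 of their genes, Gbp2, Gbp3, Gbp4, Gbp5, Gbp6, Gbp7, Irgm1, Igtp and Iigp1, were followed here in thymic epithelial cells (TECs). They were chosen by name, as families that lean towards interferon-γ, and all 9 were found by symbol among the 31053 genes of the expression matrices. Single TECs from C57BL/6 mice at 6 weeks of age had been profiled by droplet-based RNA-seq, in which mRNA molecules are counted per cell through cell barcodes and unique molecular identifiers (UMIs). The groups WT-Control and WT-RANKL-Ab were wild-type mice that received a control IgG or an antibody neutralizing RANKL (5 mg/kg) when 4 weeks old, and their TECs were taken 2 weeks later. In Cd40-/- Control and Cd40-/- RANKL-Ab, the same injections were given to mice that lack CD40 in every cell and throughout life. All groups were sorted as EpCAM+ CD45- TER119- cells, and each is a single library made from 3 pooled mice, so there is no replicate of any condition. Below, values for the 4 libraries follow 1 order: wild type before Cd40-/-, and within a genotype the control before the antibody.

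GBPs are large GTPases that gather on the vacuoles and membranes of intracellular microbes and help to break them open. IRGs are smaller GTPases of the same defence: Iigp1 is an effector that loads onto vacuoles, whereas Irgm1 and Igtp are regulators that hold the effectors inactive on the cell's own membranes. Both families are known targets of interferon-γ, and many of their genes also respond to type I and type III interferons. Medullary TECs (mTECs) are known to hold interferon-stimulated transcripts in the absence of infection.

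Promoters of the members hold letters of interferon response elements. RefSeq windows (GRCm38.p6, 250 bases before to 50 after a start site) were at hand for 6 of the 9 members, Gbp2, Gbp3, Gbp5, Gbp7, Irgm1 and Igtp, with 7 windows in all. The core of the interferon-stimulated response element (ISRE), spelled as GAAA, any 2 bases and GAAA, was searched on both strands and occurred for 6 of these 6 genes, against 3.44% of all 32851 windows. The interferon-γ activated site (GAS), spelled as TTC, any 3 bases and GAA, occurred for Gbp5, Gbp7 and Igtp, against 8.30% of all windows. The members are counted per gene and the background per window, and 1 of the 2 windows of Gbp3 held neither element. The 250 bases before the start site are shown for 4 members, because the letters stand there in different arrangements: 1 ISRE core in Gbp2, 2 GAS and 1 ISRE core in Gbp7, a GAS just upstream of an ISRE core in Igtp, and 2 overlapping ISRE cores in Irgm1. Capitals mark the matches, and the bases run 5′ to 3′ on the strand of the gene.
Gbp2, chr3:142620413-142620662, plus strand: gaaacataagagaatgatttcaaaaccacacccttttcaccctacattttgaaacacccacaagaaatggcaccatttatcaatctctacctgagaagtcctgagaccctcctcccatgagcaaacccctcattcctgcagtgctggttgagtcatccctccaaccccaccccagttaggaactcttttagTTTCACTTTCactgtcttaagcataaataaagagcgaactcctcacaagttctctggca
Gbp7, chr3:142530086-142530335, plus strand: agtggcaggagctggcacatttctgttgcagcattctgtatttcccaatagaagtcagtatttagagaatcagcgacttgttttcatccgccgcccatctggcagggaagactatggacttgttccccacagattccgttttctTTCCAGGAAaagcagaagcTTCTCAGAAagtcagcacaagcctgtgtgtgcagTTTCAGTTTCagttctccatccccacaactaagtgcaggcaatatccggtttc
Igtp, chr11:58199306-58199555, plus strand: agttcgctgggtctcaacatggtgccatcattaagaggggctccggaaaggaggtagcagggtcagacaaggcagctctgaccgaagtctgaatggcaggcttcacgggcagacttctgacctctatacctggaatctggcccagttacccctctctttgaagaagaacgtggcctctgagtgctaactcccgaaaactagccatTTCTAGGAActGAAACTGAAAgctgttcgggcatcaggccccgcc
Irgm1, chr11:48871421-48871670, minus strand: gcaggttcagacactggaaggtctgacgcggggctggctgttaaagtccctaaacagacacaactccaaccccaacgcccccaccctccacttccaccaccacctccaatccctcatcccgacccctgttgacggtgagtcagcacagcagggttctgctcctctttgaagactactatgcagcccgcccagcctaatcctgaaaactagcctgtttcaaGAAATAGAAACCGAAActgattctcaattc
A match describes letters in a window and does not show that a factor binds there.

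On GRCm38, the build of the files, GENCODE M21 places the protein-coding genes Gbp5 (142493978-142522344), Gbp7 (142530342-142550149), Gbp3 (142560026-142573209) and Gbp2 (142620602-142638008) on the plus strand of chromosome 3. Gbp4 (105115767-105139586) and Gbp6 (105270702-105293698) lie on the minus strand of chromosome 5. Irgm1 (48861968-48871683, minus strand) and Igtp (58199556-58207591, plus strand) lie apart on chromosome 11, and Iigp1 lies on another chromosome. Gbp4 overlaps Gbp8 and Gbp9 on its own strand, Igtp overlaps Irgm2, and Gbp6 and Gbp7 each overlap an unnamed gene model, so how UMIs are split between these neighbours, and between close relatives of the families, is uncertain.

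The libraries held 2082 to 10218 cells after filtering, with medians of 6086 to 7621.5 UMIs per cell. Cd40 itself gave 110.0, 28.8, 5.75 and 4.75 UMIs per 1000000 in the 4 libraries. Cd40-/- Control shared 205 cell barcodes with Cd40-/- RANKL-Ab, or 9.85% of the cells of the latter, and other pairs of libraries shared 17 to 116. These barcodes had a median of 723 UMIs in the former and 24073 in the latter, and sums over the members are also given without any barcode found in more than 1 library. Cells were placed in classes by UMIs of marker genes per 10000 UMIs of the cell, and no marker is a member. Ccl21a-high mTEC-like cells (Ccl21a, Krt5, Itga6, Sparc) numbered 9805 over the libraries, cTEC-like cells of the cortex 2132, progenitor-like cells 1413, tuft-like cells 1487 and Aire+ mTEC-like cells 5549. Smaller classes were cycling TEC-like, microfold-like, keratinocyte-like, enterohepatic-like and ciliated-like cells, and 1855 cells carried thymocyte transcripts. A further 105 cells passed a gate of neuroendocrine markers but were led by Pth, the parathyroid hormone gene, and this class was left unnamed. Of the Ccl21a-high mTEC-like cells, 4401 also passed another gate, and 1254 cells lay within 1.5-fold of the limit of this class.

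The 9 members together were highest in Ccl21a-high mTEC-like cells in 3 of the 4 libraries, in WT-RANKL-Ab by a margin within counting error. Levels are UMIs of a gene summed over the cells of a class in a library, per 1000000 UMIs of those cells (CPM), not scaled by length, and all intervals are exact 95% intervals of counting error alone. The summed members gave 784, 478, 820.1 and 269 CPM in Ccl21a-high mTEC-like cells of the 4 libraries (773 to 795 in WT-Control). Progenitor-like cells held 516, 457, 593 and 412 CPM, so they lay above the Ccl21a-high mTEC-like cells in Cd40-/- RANKL-Ab and below them in the other libraries. In WT-RANKL-Ab the interval of Ccl21a-high mTEC-like cells (470 to 487) overlapped those of progenitor-like (434 to 481) and cycling TEC-like cells (464, 428 to 503). The sum was 248, 251, 339.9 and 199.5 CPM in cTEC-like cells and 199, 103, 147 and 59.0 CPM in tuft-like cells. Aire+ mTEC-like cells gave 234, 182 and 259 CPM in the 3 libraries with at least 20 of them. Ordered by the mean over libraries, from Ccl21a-high mTEC-like over progenitor-like and keratinocyte-like down to tuft-like cells, each class overlapped the next in range.

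**Figure D1:**
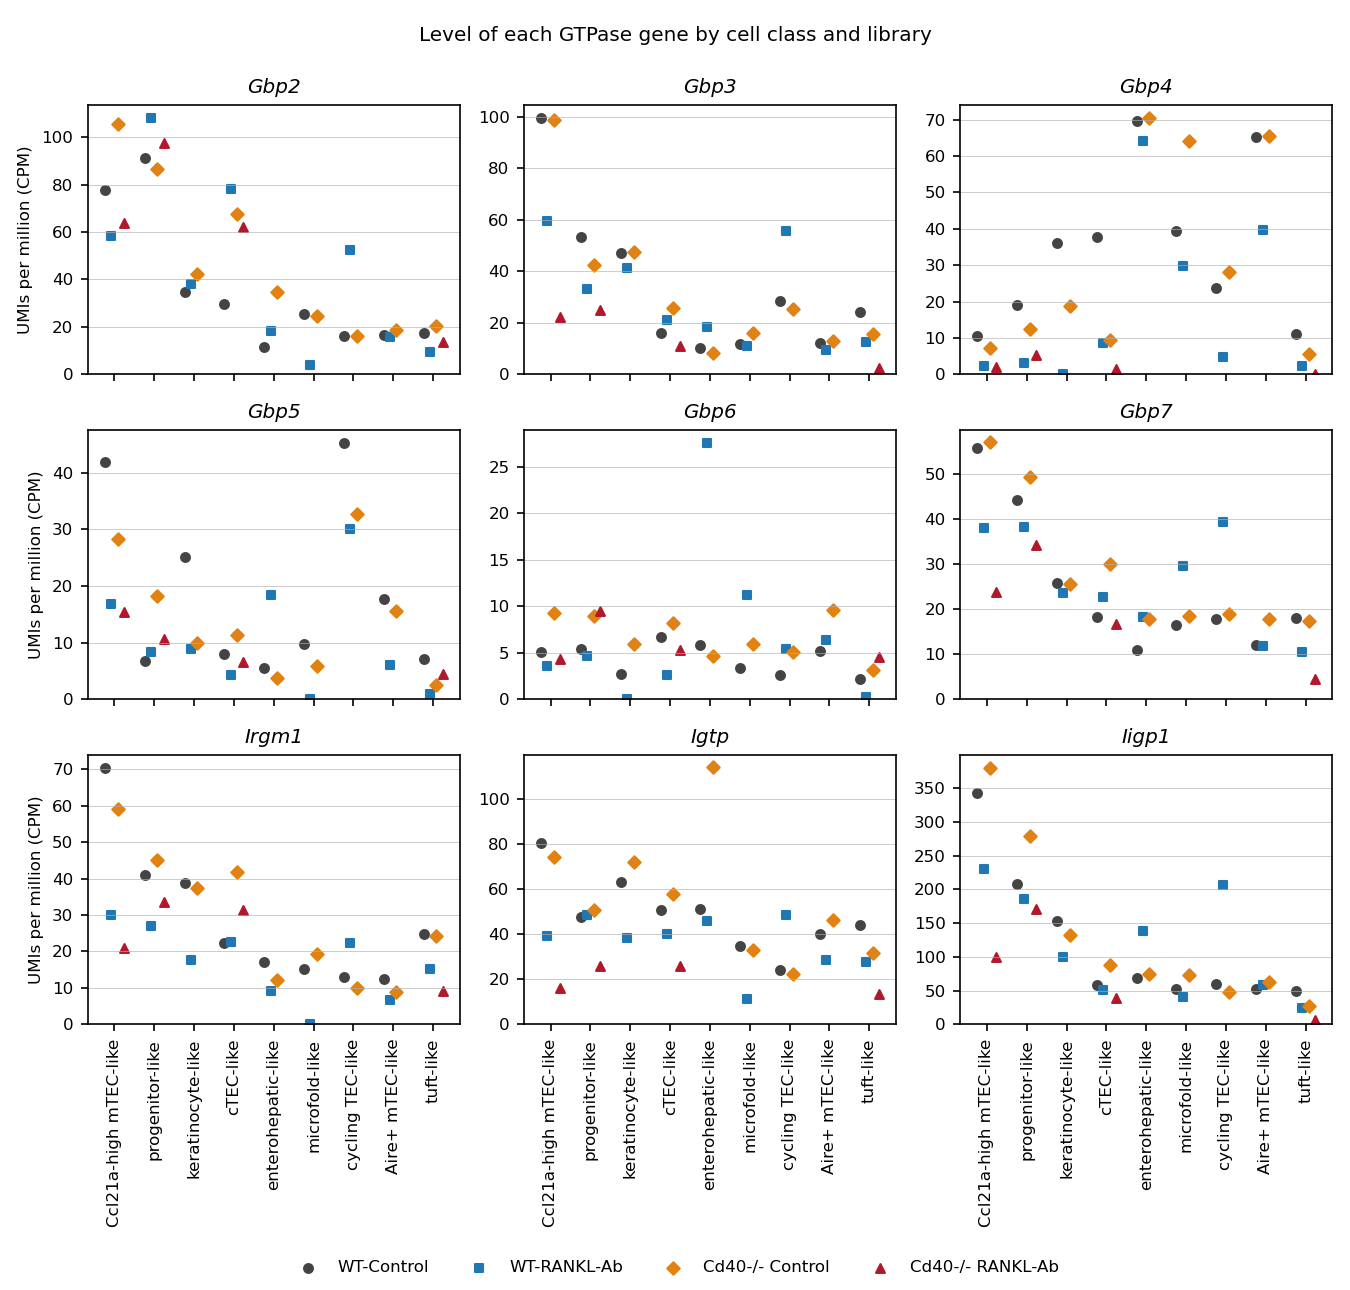
Level of each member (CPM, vertical axis) by cell class, with 1 point per library that held at least 20 cells of the class. Cells with thymocyte transcripts, ciliated-like cells and the unnamed class are not drawn. Gbp4 gives 65.2 CPM in Aire+ mTEC-like cells of WT-Control and 10.6 CPM in Ccl21a-high mTEC-like cells, and Iigp1 the reverse order with 52.5 and 343 CPM.

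Gbp4 and Iigp1 ranked Aire+ and Ccl21a-high mTEC-like cells in opposite order. Gbp4 gave 65.2, 39.6 and 65.5 CPM in Aire+ mTEC-like cells of the first 3 libraries and 69.5, 64.2 and 70.4 CPM in enterohepatic-like cells. Its highest level in WT-Control, 132 CPM (79.2 to 205), came from 19 UMIs in the 31 cells of the unnamed class, which had 1 UMI in 56 cells of WT-RANKL-Ab. In Ccl21a-high mTEC-like cells it gave 10.6, 2.30, 7.10 and 1.94 CPM, all below its lowest level in Aire+ mTEC-like cells. Iigp1, the IRG effector, gave 343, 230.2, 380.4 and 100.4 CPM in Ccl21a-high mTEC-like cells and 52.5, 57.5 and 63.3 CPM in Aire+ mTEC-like cells. Iigp1 alone made up 43.7% of the members' UMIs in Ccl21a-high mTEC-like cells of WT-Control. Gbp6 was low in every main class, with 2.58 to 9.62 CPM over cTEC-like, progenitor-like, Aire+ and Ccl21a-high mTEC-like cells.

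Shares of cells with an Iigp1 UMI were lowest in Cd40-/- RANKL-Ab among Ccl21a-high mTEC-like cells. After thinning each cell to 1000 UMIs, 28.0, 18.3, 28.8 and 9.59% of Ccl21a-high mTEC-like cells had one in the 4 libraries (exact binomial 95% interval 26.4 to 29.6 in WT-Control and 7.83 to 11.6 in Cd40-/- RANKL-Ab). Unthinned shares were 72.3, 58.0, 72.1 and 32.7%, at median depths of 6198.5, 6569, 5634 and 7526.5 UMIs. In tuft-like cells the thinned shares were 3.30, 1.63, 0.391 and 1.72%, at unthinned median depths of 6890, 6013, 5217 and 6778.5 UMIs. Before thinning, the tuft-like cells of Cd40-/- Control and Cd40-/- RANKL-Ab numbered 275 and 62, with 43 and 3 Iigp1 UMIs. The order of their shares rests on very few cells and is not read. Thinning left out 126, 72, 81 and 11 Ccl21a-high mTEC-like cells with fewer UMIs.

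Classes were then tested against Ccl21a-high mTEC-like cells across libraries with edgeR's quasi-likelihood test, with the library as a block and Benjamini-Hochberg adjustment over all genes tested. The libraries are different conditions, so the spread behind these tests includes the conditions. In tuft-like cells, the chemosensory cells of the medulla, 8 of 9 members were lower, where 30.4% of 13015 genes were called lower and 29.4% higher. Iigp1 gave 49.7, 23.9, 26.6 and 6.81 CPM there, each value below that of Ccl21a-high mTEC-like cells in the same library, and fell by 3.37 ± 0.19 (adjusted p = 3.53e-06) on the log2 scale (± SE, as below). Gbp2 fell by 2.47 ± 0.12 (adjusted p = 2.05e-06) and Gbp3 by 2.40 ± 0.15 (adjusted p = 6.25e-06) in edgeR. Of the regulators, Irgm1 fell by 1.38 ± 0.13 (adjusted p = 6.9e-05) and Igtp by 0.91 ± 0.15 (adjusted p = 0.00124). Gbp4 was not called, at -0.21 ± 0.29 (adjusted p = 0.578). Without the block Gbp6 (edgeR adjusted p = 0.0523) and Igtp (adjusted p = 0.172) were no longer called in tuft-like cells, nor was Gbp6 without Cd40-/- Control (adjusted p = 0.0556).

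In Aire+ mTEC-like cells, which display tissue antigens under the control of Aire, 1 member was higher and 7 were lower. Over the 3 libraries tested, 31.4% of 16403 genes were called higher and 27.2% lower. Gbp4 was higher by 3.25 ± 0.32 (adjusted p = 0.00196) in edgeR. Gbp3 fell by 2.91 ± 0.14 (adjusted p = 0.000913), Irgm1 by 2.52 ± 0.15 (adjusted p = 0.000934) and Iigp1 by 2.43 ± 0.19 (adjusted p = 0.0013). Gbp6, the neighbour of Gbp4 on chromosome 5, was not called, at 0.25 ± 0.25 (adjusted p = 0.433). Gbp8 and Gbp9, which overlap Gbp4, were higher as well, by 2.05 ± 0.23 (adjusted p = 0.00247) and 0.93 ± 0.17 (adjusted p = 0.00804) in edgeR. The smallest difference called was that of Igtp, which fell by 0.71 ± 0.16 (adjusted p = 0.0152) and was lost without the block (adjusted p = 0.114), without WT-Control (adjusted p = 0.0826) and without Cd40-/- Control (adjusted p = 0.0710). Gbp5 fell by 1.14 ± 0.15 (adjusted p = 0.0039) and was lost without the block (adjusted p = 0.109). Aire+ mTEC-like cells had a median of 3397 UMIs in WT-RANKL-Ab against 10757 and 8971 in the controls.

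In cTEC-like cells 4 of 9 members were lower, where 20.2% of 12786 genes were called lower and 21.1% higher. Iigp1 fell by 2.07 ± 0.18 (adjusted p = 0.000561), Gbp3 by 1.81 ± 0.24 (adjusted p = 0.00221), Gbp5 by 1.74 ± 0.20 (adjusted p = 0.00147) and Gbp7 by 0.97 ± 0.17 (adjusted p = 0.00659) in edgeR. The regulators were not called, with Igtp at -0.12 ± 0.21 (adjusted p = 0.653) and Irgm1 at -0.52 ± 0.31 (adjusted p = 0.222). Gbp4 had 136, 43, 53 and 6 UMIs in cTEC-like cells of the 4 libraries, highest in WT-Control, and its difference of 1.15 ± 0.41 (adjusted p = 0.0658) was called in edgeR without Cd40-/- RANKL-Ab (adjusted p = 0.0447). Among cells that passed 1 gate only, the Gbp4 difference was -0.15.

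In progenitor-like cells 2 of 9 members were lower, where 12.5% of 12521 genes were called lower and 12.9% higher. They were Gbp5, which fell by 1.25 ± 0.32 (adjusted p = 0.0298), and Gbp3, which fell by 0.90 ± 0.21 (adjusted p = 0.0235) in edgeR. The count fell to 0 without the block, without WT-RANKL-Ab or without Cd40-/- Control, and to 1 without WT-Control. Without Cd40-/- RANKL-Ab, Gbp5 was lost (edgeR adjusted p = 0.0501) and Iigp1 was called lower (adjusted p = 0.0200). Gbp2 was at 0.23 ± 0.20 (adjusted p = 0.439) and Iigp1 at -0.33 ± 0.23 (adjusted p = 0.354).

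**Figure D2:**
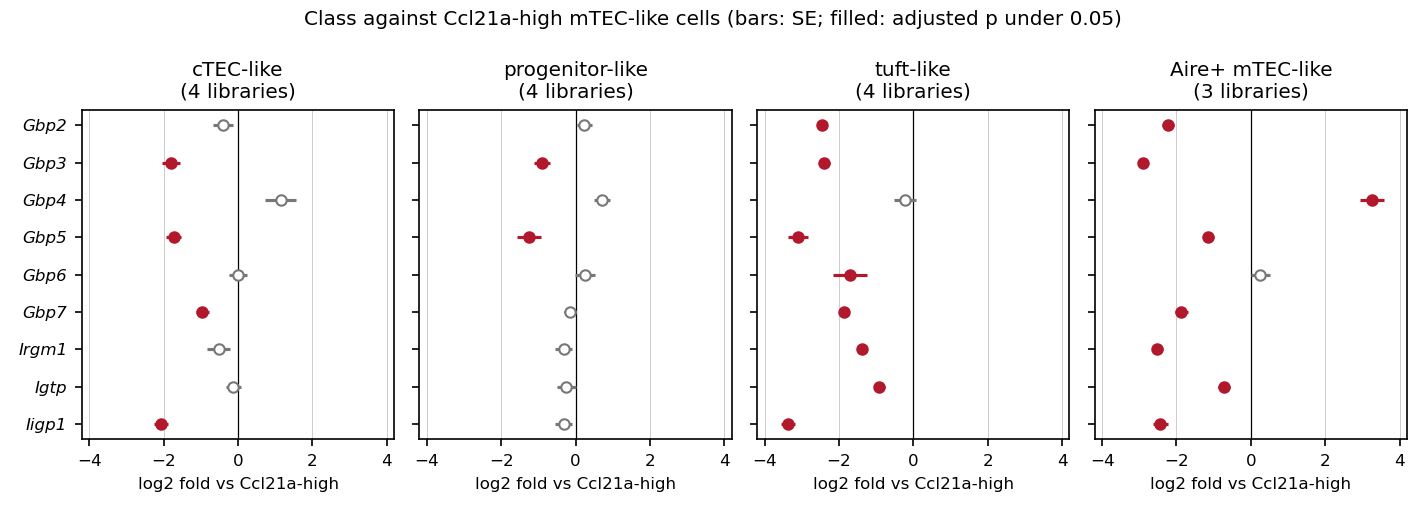
Log2 difference of each member between a class and Ccl21a-high mTEC-like cells, with SE bars and filled points at an adjusted p under 0.05. Gbp4 stands at 3.25 in Aire+ mTEC-like cells, while 8 of 9 members are filled below 0 in tuft-like cells and 2 in progenitor-like cells.

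The other interferon genes were counted in the same edgeR tests. Of the type I and III interferon-stimulated genes (ISGs), 35 of 38 were lower in Aire+ mTEC-like, 26 of 36 in cTEC-like, 27 of 37 in tuft-like and 21 of 37 in progenitor-like cells, and 1, 0, 0 and 0 were higher. Other interferon-γ targets split: 14 of 24 were higher and 5 lower in Aire+ mTEC-like cells, and 10 of 22 were higher and 3 lower in cTEC-like cells. In tuft-like cells 17 of 23 of them were lower and 3 higher, and in progenitor-like cells 6 of 22 lower and 3 higher. Further GTPase genes of the families were lower for 7 of 11 in Aire+ mTEC-like, 4 of 10 in cTEC-like, 8 of 10 in tuft-like and 0 of 10 in progenitor-like cells, and 3, 2, 1 and 0 were higher.

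Between conditions there is 1 library each, so no test was made, and a gene counts as lower when it is past 2-fold with 20 or more UMIs over the pair of libraries. In Ccl21a-high mTEC-like cells the summed members were 1.64-fold lower in WT-RANKL-Ab than in WT-Control (log2 ratio -0.71, -0.75 to -0.68) and 2.91-fold lower in Cd40-/- RANKL-Ab (-1.54, -1.61 to -1.48). Cd40-/- Control lay close to WT-Control (0.06, 0.03 to 0.10, but -0.066 with TMM factors). Past 2-fold lower were 4 of 9 members in WT-RANKL-Ab, where 10.6% of 14906 genes were, and 7 of 9 in Cd40-/- RANKL-Ab, where 14.8% of 14372 genes were. The count was 0 of 9 in Cd40-/- Control, against 7.10% of 14757 genes. Against Cd40-/- Control, 7 of 9 members were past 2-fold lower in Cd40-/- RANKL-Ab (background 9.55%), and their sum was 3.04-fold lower. The median over the members was -0.74, -0.01 and -1.75 in the 3 other libraries over WT-Control, beside 0.12, 0.11 and 0.07 over all genes counted, and these ratios share WT-Control.

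**Figure D3:**
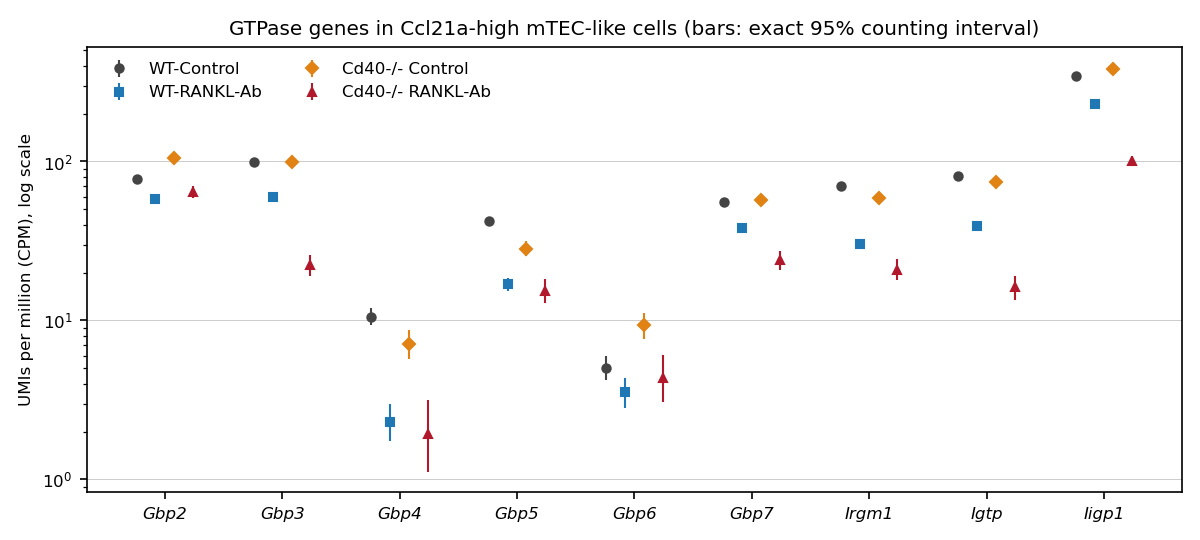
Level of each member in Ccl21a-high mTEC-like cells (CPM, log axis) in the 4 libraries, with exact 95% counting intervals. Both controls lie above both antibody libraries for 9 of 9 members, and Cd40-/- RANKL-Ab is lowest for 7 of 9. The intervals of the antibody libraries overlap for Gbp4 and Gbp5, and those of WT-Control and Cd40-/- RANKL-Ab overlap for Gbp6.

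The GBPs of chromosome 3 differed in size of change. Gbp3 gave 99.5, 59.6, 98.6 and 22.2 CPM in Ccl21a-high mTEC-like cells, with the lowest value in Cd40-/- RANKL-Ab and an interval around 0 between the controls (-0.01, -0.11 to 0.09). Its log2 ratio to WT-Control was -0.74 (-0.83 to -0.64) in WT-RANKL-Ab and -2.16 (-2.39 to -1.95) in Cd40-/- RANKL-Ab. Gbp2, on the same chromosome, gave 77.6, 58.4, 105.5 and 64.0 CPM, highest in Cd40-/- Control, and its ratios were -0.41 (-0.51 to -0.31) and -0.28 (-0.42 to -0.14). Gbp2 made up 9.90% of the members' UMIs in WT-Control and 23.8% in Cd40-/- RANKL-Ab. Gbp5, which is known for a role in inflammasome assembly, gave 41.9, 16.9, 28.3 and 15.4 CPM, with the antibody libraries next to each other. Its ratios to WT-Control were -1.31 (-1.48 to -1.14) in WT-RANKL-Ab and -1.44 (-1.72 to -1.18) in Cd40-/- RANKL-Ab. Gbp7 gave 55.9, 38.2, 57.2 and 23.9 CPM, and the same ratios were -0.55 (-0.67 to -0.43) and -1.22 (-1.45 to -1.01).

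The GBPs of chromosome 5 had few UMIs in Ccl21a-high mTEC-like cells. Gbp4 had 258, 56, 87 and 16 UMIs, fewest in the antibody libraries, and its ratios for the 3 other libraries over WT-Control were -2.20 (-2.65 to -1.78), -0.58 (-0.94 to -0.22) and -2.44 (-3.27 to -1.72). Gbp6 gave 5.04, 3.53, 9.30 and 4.37 CPM, and its interval included 0 in Cd40-/- RANKL-Ab over WT-Control (-0.21, -0.78 to 0.34). Gbp2 and Gbp6 were the members not past 2-fold lower in that comparison. In Cd40-/- Control over WT-Control they stood at 0.44 (0.34 to 0.55) and 0.88 (0.50 to 1.26).

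Both IRG regulators were lower in both antibody libraries. Irgm1, which is also known for a part in autophagy, gave 70.3, 30.1, 59.1 and 20.9 CPM, with log2 ratios of -1.22 (-1.35 to -1.10) in WT-RANKL-Ab and -1.75 (-1.99 to -1.52) in Cd40-/- RANKL-Ab over WT-Control. Igtp gave 80.7, 39.0, 74.6 and 16.2 CPM, and its ratios were -1.05 (-1.16 to -0.94) and -2.32 (-2.59 to -2.07). The effector Iigp1 had 8359, 5612, 4662 and 827 UMIs and ratios of -0.57 (-0.62 to -0.53) and -1.77 (-1.88 to -1.67), so its value in WT-RANKL-Ab was not past 2-fold. Without barcodes found in more than 1 library, the ratio of Cd40-/- RANKL-Ab to WT-Control was -1.64 for the sum (within Cd40-/- mice -1.70) and -2.66 for Igtp.

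Transcripts of other cells moved with these ratios in Ccl21a-high mTEC-like cells. The 8 myeloid or dendritic markers, of which 6 to 8 had a UMI in each library, summed to 84.6, 16.1, 64.5 and 7.17 CPM in the 4 libraries. The 6 enterohepatic-like markers summed to 42.5, 4.06, 28.5 and 0.607 CPM, with 3 of them at 0 in Cd40-/- RANKL-Ab. The part of these transcripts in the members' ratios was not tested.

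The type I and III ISGs had medians below 0 in the same 3 ratios. From a list of 40, 37 were counted, and their median log2 ratios for the 3 other libraries over WT-Control were -0.69, -0.05 and -2.22, with 13, 1 and 33 past 2-fold lower. Isg15, a ubiquitin-like modifier, had 30940, 10069, 8210 and 736 UMIs and a ratio of -3.83 (-3.93 to -3.72) in Cd40-/- RANKL-Ab. Ifi27l2a stood at -2.49 (-2.53 to -2.46) there, and Ifitm3, which blocks the entry of viruses, at -0.98. The other interferon-γ targets had medians of -0.49, -0.22 and -0.71, with 6, 5 and 10 of 24 past 2-fold lower. Cd74, H2-Aa and H2-Ab1, which serve antigen presentation on MHC class II, stood at -0.37 (-0.38 to -0.36), -0.37 (-0.39 to -0.35) and -0.31 (-0.33 to -0.30) in Cd40-/- RANKL-Ab. No test compares these lists.

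Of the further GTPase genes, 10 were counted in Ccl21a-high mTEC-like cells, and 2, 0 and 7 were past 2-fold lower in the 3 other libraries, with medians of -0.54, 0.54 and -1.19. Gm4951, an IRG, gave 175, 164, 200.2 and 47.4 CPM in the 4 libraries, low in Cd40-/- RANKL-Ab alone (-1.88, -2.04 to -1.73 over WT-Control). Gbp8 stood at -1.31 (-1.71 to -0.93) and Gbp9 at -1.82 (-2.33 to -1.35) in the same comparison.

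**Figure D4:**
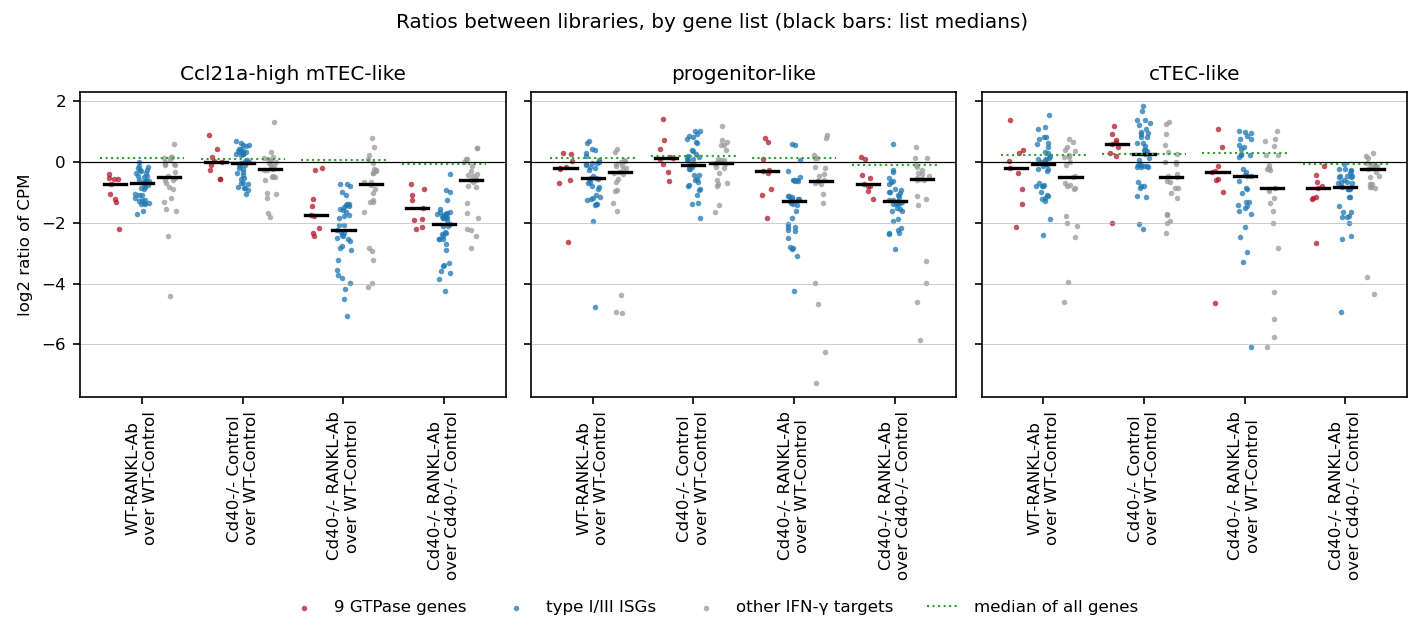
Log2 ratios between libraries (vertical axis) for the members, the type I and III ISGs and the other interferon-γ targets in 3 classes, with 1 point per counted gene and bars at list medians. For Cd40-/- RANKL-Ab over WT-Control the medians of members and ISGs are -1.75 and -2.22 in Ccl21a-high mTEC-like cells, and -0.28 and -1.29 in progenitor-like cells.

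In progenitor-like cells the summed members stood at -0.17 (-0.30 to -0.05), 0.20 (0.07 to 0.33) and -0.32 (-0.47 to -0.17) in the 3 other libraries over WT-Control. Of the 9 members 1, 0 and 2 were past 2-fold lower, against 9.41%, 5.45% and 10.1% of all genes counted, while 10, 4 and 23 ISGs were, of 35, 36 and 33 counted. Without shared barcodes the last 2 ratios were 0.17 and -0.33. Against Cd40-/- Control, 1 member was past 2-fold lower in Cd40-/- RANKL-Ab (background 10.3%), and the sum stood at -0.53 (-0.66 to -0.39), or -0.50 without shared barcodes. Gbp2 gave 91.2, 108, 86.6 and 97.4 CPM, and its intervals to WT-Control included 0 in each of the 3 libraries. Iigp1 gave 208, 186, 279 and 171 CPM, highest in Cd40-/- Control, with a ratio of -0.28 (-0.52 to -0.05) in Cd40-/- RANKL-Ab over WT-Control. The members past 2-fold lower in that comparison were Gbp3 (-1.10, -1.68 to -0.54) and Gbp4 (-1.84, -3.11 to -0.72), of which Gbp4 turned to 0.11 with the gate limits doubled. The Aire+ mTEC-like markers summed to 295, 17.2, 140.1 and 5.31 CPM in these progenitor-like cells and the myeloid or dendritic markers to 387, 13.5, 183 and 8.27 CPM, and their part in the result was not tested.

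In cTEC-like cells Gbp2 and Gbp4 went opposite ways. Gbp2 gave 29.7, 78.1, 67.8 and 62.3 CPM, lowest in WT-Control, with log2 ratios of 1.40, 1.19 and 1.07 for the 3 other libraries, whereas Gbp4 stood at -2.14, -1.99 and -4.65. Past 2-fold lower were 2, 1 and 1 members, against 19.2%, 18.2% and 19.6% of all genes counted, and past 2-fold higher 1, 1 and 1, against 13.9%, 19.8% and 19.4%. The cTEC-like cells of WT-Control stood apart: they held 1148 CPM of the 4 Aire+ mTEC-like markers and 884 CPM of the myeloid or dendritic markers, against 231, 221 and 97.5 CPM and 46.1, 117 and 12.3 CPM in the other libraries, and 112 of their 350 cells passed no other gate. Among cells that passed 1 gate only, a choice made after seeing the data, past 2-fold lower were 2, 0 and 5 members, of 7, 9 and 8 with at least 20 UMIs, in the 3 other libraries, against 3.99%, 4.15% and 2.89% of genes. The ratios in these cells were 0.59, 0.23 and 0.11 for Gbp2 and -0.95, -0.31 and -1.62 for Gbp4. In Cd40-/- RANKL-Ab over WT-Control, Iigp1 went from -0.58 to -1.92 and Gbp3 from -0.55 to -1.59 with this choice. Without shared barcodes the summed members stood at 0.44 and -0.38 for the last 2 libraries over WT-Control, against 0.45 and -0.31 with them.

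The comparison within Cd40-/- mice does not use WT-Control. In cTEC-like cells 4 of 9 members were past 2-fold lower in Cd40-/- RANKL-Ab than in Cd40-/- Control, against 8.69% of 12091 genes, and their sum stood at -0.77 (-0.89 to -0.65). Iigp1 was at -1.16 (-1.43 to -0.90) and Igtp at -1.17 (-1.50 to -0.85), while the interval of Gbp2 included 0 (-0.12, -0.36 to 0.11). Of the cTEC-like cells of Cd40-/- Control, 71 carried a barcode found in another library, and without such barcodes the sum stood at -0.82.

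In tuft-like cells the summed members stood at -0.95 (-1.12 to -0.78), -0.44 (-0.65 to -0.23) and -1.75 (-2.37 to -1.19) in the 3 other libraries over WT-Control, and Cd40-/- RANKL-Ab had 62 such cells. Of 8 members with enough UMIs, 3, 2 and 5 were past 2-fold lower, against 6.25%, 4.58% and 10.8% of all genes counted. Within Cd40-/- mice it was 5 of 6, against 10.7%, and the sum stood at -1.31 (-1.96 to -0.72). These 5 members had 1 to 6 UMIs each in Cd40-/- RANKL-Ab, where the 9 members together had 26. Within Cd40-/- mice the intervals of Gbp7 (-5.05 to 0.06), Irgm1 (-3.35 to 0.06) and Igtp (-2.72 to 0.01) included 0. Without shared barcodes the sum in Cd40-/- RANKL-Ab was -1.66 over WT-Control and -1.19 over Cd40-/- Control. Iigp1 was at -1.06 (-1.42 to -0.71) in WT-RANKL-Ab.

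In Aire+ mTEC-like cells the summed members stood at -0.36 (-0.50 to -0.23) in WT-RANKL-Ab and 0.15 (0.09 to 0.20) in Cd40-/- Control over WT-Control, and Cd40-/- RANKL-Ab held 4 such cells. Gbp5 gave 17.8, 5.97 and 15.6 CPM and Gbp4, the member that was higher in this class, 65.2, 39.6 and 65.5 CPM, so WT-RANKL-Ab was lowest for both. In cycling TEC-like cells the sum was higher in WT-RANKL-Ab than in WT-Control (1.01, 0.88 to 1.14), with Iigp1 at 206 against 59.7 CPM and Gbp4 at 4.63 against 23.7 CPM. Past 2-fold higher were 5 of 9 members and 29 of 37 ISGs, against 15.6% of all genes counted. This class held 668 and 168 cells in WT-Control and WT-RANKL-Ab, at median depths of 15889 and 4908 UMIs, and 1299 of its 1523 cells over all libraries passed another gate. The part of these differences in the result was not tested.

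Interferon receptors and signal genes were counted for the same classes, and 10 were tested against Ccl21a-high mTEC-like cells. Lower were 5 in Aire+ mTEC-like, 6 in cTEC-like, 3 in progenitor-like and 6 in tuft-like cells, and 2, 2, 1 and 2 were higher. The shares of all genes called in these tests are given above. Ifngr1, a chain of the interferon-γ receptor, was lower than in Ccl21a-high mTEC-like cells in all 4 classes tested, by 2.26 ± 0.14 (adjusted p = 0.001) in Aire+ mTEC-like, 2.20 ± 0.17 (adjusted p = 0.000386) in cTEC-like, 1.70 ± 0.11 (adjusted p = 0.000368) in progenitor-like and 2.74 ± 0.15 (adjusted p = 3.39e-06) in tuft-like cells by edgeR. Ifnlr1, the specific chain of the type III receptor, fell by 3.83 ± 0.39 (adjusted p = 0.00203) in Aire+ mTEC-like cells. Within Ccl21a-high mTEC-like cells Ifngr1 gave 136, 142, 148 and 194 CPM and Ifngr2 117, 123, 137 and 102 CPM in the 4 libraries, and 0, 0 and 0 of 10 receptor and signal genes were past 2-fold lower in the 3 other libraries. Ifnar1, Ifnar2, Ifnlr1, Il10rb and Jak1 stood at 0.51 (0.32 to 0.70), 1.22 (1.09 to 1.36), 0.02 (-0.52 to 0.53), 0.50 (0.37 to 0.63) and 0.28 (0.19 to 0.37) in Cd40-/- RANKL-Ab over WT-Control.

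Interferon ligands were sparse. Raw counts below are over all cells, and the 4 libraries held 95277834, 48640841, 66295255 and 19153685 UMIs in total. Ifng had 195, 10, 50 and 4 UMIs in the 4 libraries, or 2.05, 0.206, 0.754 and 0.209 CPM of the whole library, highest in WT-Control. Aire+ mTEC-like cells numbered 3072, 458, 2015 and 4 in these libraries, and their part in the ligand counts was not tested. The type III interferons Ifnl2 and Ifnl3 had 466, 39, 241 and 0 and 250, 14, 120 and 0 UMIs, with none in Cd40-/- RANKL-Ab, where a count of 0 allows up to 0.157 CPM (3 UMIs). Ifnb1 had 124, 0, 49 and 2 UMIs, Ifnk 4, 0, 1 and 0 and Ifne 5, 0, 4 and 0, and Ifna4 had 0 throughout. Ifnl2 and Ifnl3 were higher in Aire+ mTEC-like than in Ccl21a-high mTEC-like cells, by 4.15 ± 0.70 (adjusted p = 0.00706) and 4.57 ± 0.95 (adjusted p = 0.0127) in edgeR, and Ifng was not called, at 1.57 ± 1.22 (adjusted p = 0.312).

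Across 43 pairs of class and library, the genes whose log2(CPM + 1) was most like the mean of the members were Ifit3 (Pearson r = 0.82), Ifit3b (0.81), Ifi44 (0.75), Ifi47 (0.73) and Bst2 (0.71), out of 16150 genes with at least 200 UMIs. All 5 are known interferon-stimulated genes. Among the members, which form that mean, Iigp1 was most like it (0.77) and Gbp4 least (0.29). With log2(CPM + 10) Gbp4 stood at 0.09 and Iigp1 at 0.85, and Gm4951 (0.76) took the place of Bst2 (0.73) among the first 5. The points share libraries and differ in depth, so these values are a description.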

How the data were processed

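UMI counts per gene and barcode, not normalized, were deposited by the authors for barcodes called as cells, after alignment to mm10 (GRCm38) with Cell Ranger, version 5.1 per the labels. Kept were 28055 of 29253 barcodes, those with 200 or more genes and no more than 25% mitochondrial UMIs, and 23558 genes found in more than 5 cells. No doublet caller was run; cells passing 1 gate only served as an alternative. Marker genes of the classes were fixed, except that Tbata was left out of the cTEC-like gate because it was found across mTECs too. The limits of the gates were set after the marker distributions had been seen. UMI counts were summed per class and library. Class tests used edgeR 4.0.16 in R 4.3.3 (TMM, filterByExpr, quasi-likelihood, library as block), with DESeq2 1.42.0 as an alternative. Ratios between libraries had exact conditional binomial intervals (scipy 1.17.1, Python 3.11.15), with a floor of 3 UMIs for a library at 0, and pairs of library and class needed 20 cells. On simulated data the class tests recovered 90.5, 77, 72.5 and 76% of 200 genes changed 2-fold for cTEC-like, progenitor-like, tuft-like and Aire+ mTEC-like cells, over 12600, 12271, 12439 and 14774 genes. Of the calls, 6.22, 5.52, 6.45 and 5.59% were false in the same order. In this simulation all libraries had the same expected levels, unlike the conditions of the data. Of the simulated intervals for ratios, 95.8% contained the known value, over 14390 genes in Ccl21a-high mTEC-like cells. Their counts were drawn with counting error alone, which the intervals assume, so spread between mice or libraries was not covered. Named were all members, the 3 genes of each other list with most UMIs in WT-Control, all interferon receptors and ligands, and the 5 genes most like the members. Members and lists were chosen with earlier results of these data known.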

Additional observations from a re-analysis of the deposited data

Results flagged for a closer look

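In cells that carried thymocyte transcripts, Gbp2 went opposite ways with the RANKL antibody in the genotypes, with a log2 ratio of 0.71 (0.35 to 1.08) in wild-type and -0.30 (-0.57 to -0.04) in Cd40-/- mice. Gbp2 gave 36.1, 59.0, 52.8 and 42.8 CPM in the 4 libraries. The difference between the genotypes was not tested, since each group has 1 library. Over all genes counted in this class, the median log2 ratio was 0.22 in wild-type and -0.10 in Cd40-/- mice. The log2 TMM factor of the pair of Cd40-/- libraries was -0.089, and with it the interval of Gbp2 would hold both signs. Of the 1855 cells of this class over all libraries, 1216 also passed another gate. In this class 113 of the 877 cells of Cd40-/- Control and 106 of the 314 cells of Cd40-/- RANKL-Ab carried a barcode found in another library. Without such barcodes the ratio was 0.66 (0.29 to 1.03) in wild-type and -0.97 (-1.58 to -0.42) in Cd40-/- mice. This alternative was chosen after seeing the data. Its ratio in Cd40-/- mice rests on 28 Gbp2 UMIs in Cd40-/- RANKL-Ab, against 171 with shared barcodes. In Cd40-/- Control the same counts were 394 and 408.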

How the results depend on the processing

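The summed log2 ratios moved beyond their intervals as follows. In Ccl21a-high mTEC-like cells WT-RANKL-Ab over WT-Control was -0.76 with the gate limits doubled, -0.62 with them halved, -0.79 with TMM factors and -0.77 as a mean over cells. Cd40-/- RANKL-Ab over WT-Control was -1.61, -1.44, -1.65 and -1.72 in that order, and -1.64 without shared barcodes. Over Cd40-/- Control it was -1.68, -1.53, -1.54, -1.75 and -1.70. Cd40-/- Control over WT-Control was -0.018 for cells passing 1 gate only, an alternative chosen after seeing the data, and -0.066 with TMM, against 0.06 as reported, so its sign changed. In cTEC-like cells the 3 ratios to WT-Control were -0.32, 0.0097 and -0.75 for cells passing 1 gate only and -0.13, 0.34 and -0.61 with TMM, and the last 2 were 0.33 and -0.46 with limits doubled. In progenitor-like cells they were -0.48, 0.052 and -0.74 with limits doubled (within Cd40-/- mice -0.79) and -0.32, 0.055 and -0.51 as means over cells, and the first was -0.016 with limits halved and -0.32 with 1 gate only. Of class counts, members higher in cTEC-like cells went from 0 to 1 with no filter and with limits doubled, and from 0 to 1 over the libraries left out. In progenitor-like cells the members lower were 0 without the library block and 0 to 2 over the libraries left out, and 1 was higher with limits halved. Reversed were Gbp4 in progenitor-like cells of Cd40-/- RANKL-Ab over WT-Control with limits doubled (0.11) and Gbp5 in tuft-like cells of Cd40-/- Control over WT-Control with limits doubled (0.31) and with 1 gate only (0.20). TMM factors shift all log2 ratios of Ccl21a-high mTEC-like cells to WT-Control down by 0.08, 0.13 and 0.10. The cause of the other moves was not tested. No paired analysis was possible because each group has 1 library. Depth limits Gbp4 and Gbp6, and tuft-like cells of Cd40-/- RANKL-Ab.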

Other observations

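The 2508 cells that passed no gate held the 9 members at a summed level of 333, 239.7, 341 and 259.9 CPM in the 4 libraries. Iigp1 made up 26.4, 35.2, 28.7 and 47.0% of these UMIs.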
